A study of Bos taurus with 6 samples.

Results

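Fetal bovine serum (FBS) carries miRNAs that in mammals are known from platelets and white blood cells, and 9 such miRNA genes were followed here through the pelleted and soluble fractions of the serum. The genes were miR-21, miR-142, miR-146a, miR-146b, miR-150, miR-155, miR-191, miR-223 and miR-342, picked by name, with both arms of each hairpin counted where listed. In the human mapping 12 of 502 miRNA names belonged to them, and in the mouse mapping 12 of 395. All 9 have a gene of the same number in the cattle assembly ARS-UCD2.0, where MIR342 lies within EVL, MIR142 within TSPOAP1 and MIR223 within VSIG4, while VMP1 is the nearest neighbour of MIR21 and MIR425 lies beside MIR191. The mature sequences of the species were not set side by side, so these genes are matched by name alone.

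The samples were 3 pellets and 3 supernatants of FBS, the serum of unborn calves used to feed cultured cells, with no further treatment of either fraction. Portions of 40 mL were spun at 100000 g for 24 h, which brings down extracellular vesicles (EVs) along with other heavy particles, and 20 mL of the supernatant was concentrated on a 3 kDa filter before RNA was isolated in the same way. From 60 ng of RNA, treated with a polynucleotide kinase, small RNA libraries with inserts of 15 to 65 nt were sequenced. The study mapped these bovine reads to the human and to the mouse genome to learn which RNAs of culture medium could be taken for RNA of human or mouse cells.

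A miRNA is cut from a hairpin as a pair of short strands, the 5p and the 3p arm, one of which is usually kept and guides the silencing of mRNAs. miR-21 is found in many cell types and represses the tumor suppressor PDCD4, and it is among the more abundant miRNAs of human platelets and monocytes. miR-142 is made almost only in blood-forming cells and their descendants, and miR-191 is expressed widely, including in platelets and white blood cells. miR-223 marks the myeloid line and is one of the most abundant miRNAs of human platelets and neutrophils, while miR-150 marks mature lymphocytes, where it represses MYB. miR-155 is induced when lymphocytes and macrophages are activated. miR-146a is induced by NF-kB and dampens it through TRAF6 and IRAK1, and miR-146b is its near-identical relative. miR-342 lies in an intron of EVL. In serum, release by more cells and release of more RNA per cell cannot be told apart.

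Values are RPM, that is, reads scaled to a fixed total of mapped reads, so they are shares of what mapped in a library and fall when another RNA takes more of the reads. Where at least 6 miRNA names had one and the same lowest value, it was taken as 1 read, and depth so estimated was 867426 reads (pellet 3) to 6660802 reads (pellet 1) in the human mapping. A count of 0 then allows up to 0.450 RPM in pellet 1 and 3.46 RPM in pellet 3, a floor of 3 reads that covers counting error only. The sources speak of FBS batches in one place and of aliquots in another, so p-values measure the spread between these libraries alone, which may be technical. Mature miRNAs are of nearly the same length, and their RPM were set side by side without a correction for it.

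A trio of arms, miR-21-5p, miR-142-5p and miR-191-5p, held nearly all of the signal. They made up 97.5% ± 2.04 of the summed RPM of the 12 names in pellets and 98.2% ± 0.926 in supernatants (SD, n = 3 per fraction). The sum stood at 421 ± 190 RPM in the pellets, from 219 to 598 RPM, and at 46.6 ± 17.1 RPM in the supernatants, from 31.3 to 65.0 RPM, without overlap. That was 9.04 times as much per mapped read in the pellets, and 5.70 times as much as a share of the miRNA reads. These folds compare shares, since every library was made from the same amount of RNA. The paper reports that most RNA of FBS stayed in the supernatant after such a spin. It also reports that a smaller part of the pellet reads than of the supernatant reads mapped to the human genome. Both would make the fold in amount per volume of serum smaller, and that fold was not computed. Of all miRNA reads, the 12 names took 0.488% ± 0.246 in pellets and 0.0857% ± 0.0361 in supernatants (SD, n = 3 per fraction). With miR-122-5p and miR-1246, the 2 most abundant miRNAs of FBS, left out of the total, the shares were 3.51% ± 1.25 and 1.80% ± 0.566, a difference of 1.95 times, and the lowest pellet (2.41%) stood just above the highest supernatant (2.33%).

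**Figure D1:**
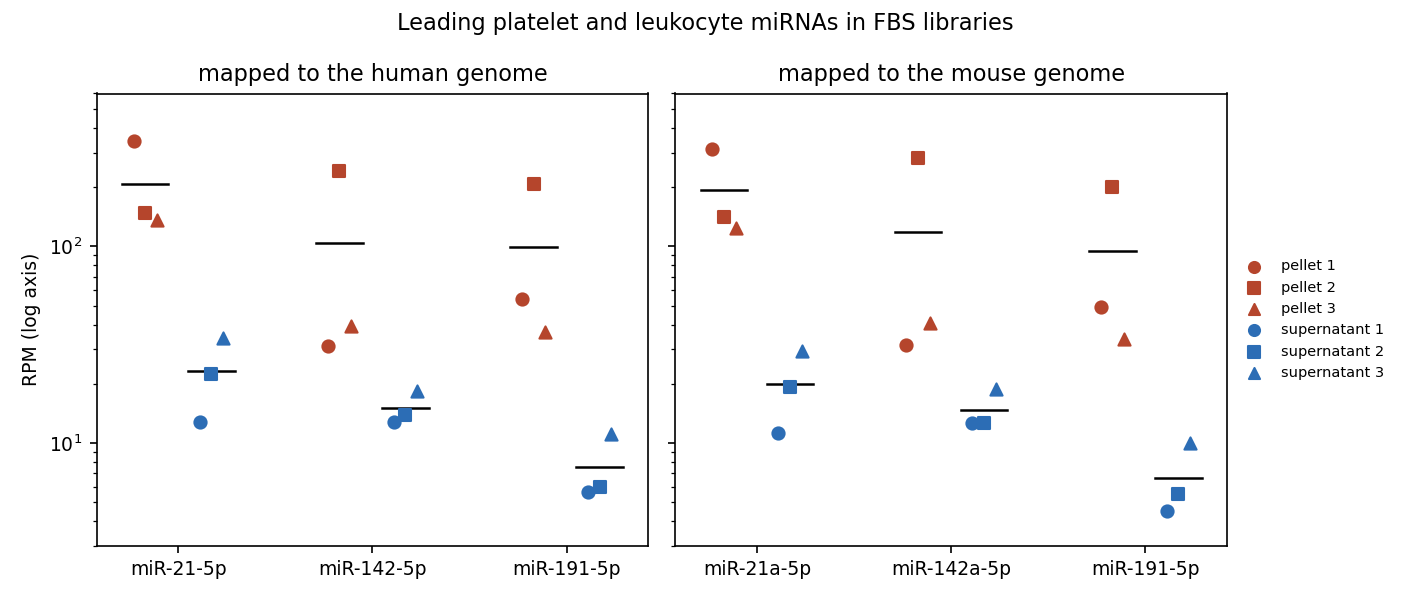
RPM on a log axis of the 3 leading arms in each library, with pellets in red, supernatants in blue, marker shapes for the library number and black bars for the mean of 3. Every pellet lies above every supernatant, pellet 1 leads for miR-21-5p, and pellet 2 leads for miR-142-5p and miR-191-5p.

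miR-21-5p (hsa-miR-21-5p) had the highest mean of the 12 names in both fractions. It stood at 343, 148 and 136 RPM in pellets 1, 2 and 3 and at 12.7, 22.5 and 34.1 RPM in supernatants 1, 2 and 3. The lowest pellet was thus above the highest supernatant, and pellet 1 stood above the other pellets. The means were 209 ± 116 and 23.1 ± 10.7 RPM (SD, n = 3 each), or 142 RPM in the pellets without pellet 1. The log2 fold change was 3.09 after adding 1 RPM to every value, a step that makes changes of rare RNAs look smaller (standard error 0.56, adjusted p = 0.00913 from limma, higher in 3 of 3 pellets). Over all 153 names tested the median log2 fold change was 2.05, since nearly all miRNAs took a larger share of the reads in the pellets, and miR-21-5p lay 1.04 above that median, with 22 names further up. Among all miRNAs of a library it ranked between 16 and 27 in the pellets and between 18 and 40 in the supernatants. Its call was lost without supernatant 1 (adjusted p = 0.0606 from limma) or supernatant 2 (adjusted p = 0.0688), settings under which 0 of all names were called.

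miR-142-5p, the arm of the blood-cell gene, was set apart by 1 library. It stood at 31.3, 241 and 39.2 RPM in pellets 1, 2 and 3 and at 12.7, 13.9 and 18.4 RPM in supernatants 1, 2 and 3. The fractions did not overlap, but pellets 1 and 3 lay much nearer to the supernatants than to pellet 2. The pellets averaged 104 ± 119 RPM against 15.0 ± 3.02 RPM for the supernatants (SD, n = 3 each), and 35.3 RPM in the pellets without pellet 2. Its log2 fold change of 2.10 did not pass in the human mapping (standard error 0.79, adjusted p = 0.0532 from limma) and lay 0.053 above the median of all names. Without pellet 2 the log2 fold change was 1.18 (adjusted p = 0.0872). It ranked 17th in pellet 2, 88th in pellet 1 and 40th in pellet 3. In the supernatants it ranked between 31 and 41.

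miR-191-5p was low in the supernatants and again highest in pellet 2. It stood at 54.0, 208 and 36.7 RPM in pellets 1, 2 and 3 and at 5.65, 5.98 and 11.0 RPM in supernatants 1, 2 and 3. No pellet overlapped a supernatant. The means were 99.6 ± 94.5 and 7.56 ± 3.03 RPM (SD, n = 3 each), and 45.3 RPM in the pellets without pellet 2, where the log2 fold change was 2.47 (adjusted p = 0.0179 from limma). With all libraries it was 3.20 (standard error 0.73, adjusted p = 0.0162 from limma), or 1.15 above the median of all names, with 17 names further up. The call was lost without supernatant 1 (adjusted p = 0.0768) or supernatant 2 (adjusted p = 0.0884).

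Of the 3 names tested in the human mapping, 2 were called higher in the pellets and 0 lower, and 1 missed the threshold, while 47.7% of all 153 names were called higher and 0 lower (97 higher at an unadjusted p under 0.05 and 0 lower). With a filter of 5 RPM in at least 3 libraries, limma called 3 of 3 members and 80 of the 100 names tested higher. In all 3 the fractions did not overlap, as in 66.7% of all names tested. With 3 libraries against 3 the two-sided exact permutation test cannot go below p = 0.10, the value each of the 3 had. Scaling by the median of ratios between libraries moved the median of all names to 0.39 and left 0 of the 3 called by limma (1 at an unadjusted p under 0.05), with log2 fold changes of 1.09 for miR-21-5p (adjusted p = 0.241), 1.27 for miR-191-5p (adjusted p = 0.290) and 0.13 for miR-142-5p (adjusted p = 0.910). Scaling to miRNA reads moved the median to 1.49, and miR-21-5p (2.47, adjusted p = 0.00874) and miR-191-5p (2.61, adjusted p = 0.0342) passed.

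**Figure D2:**
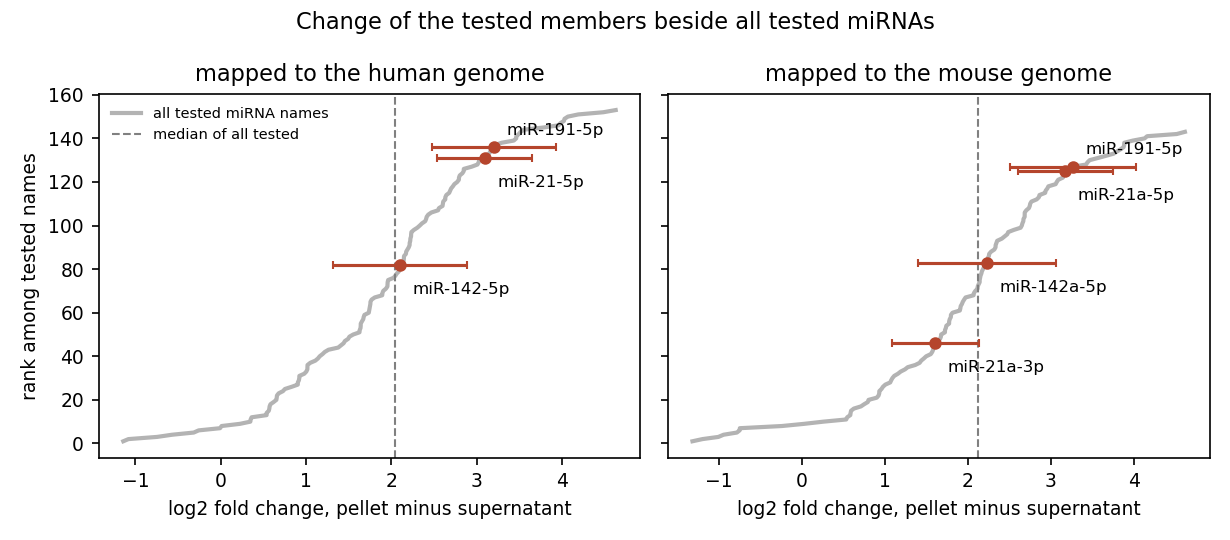
Log2 fold change, pellet minus supernatant, of all tested miRNA names in rank order (grey line, dashed line at the median) and of the tested platelet and leukocyte miRNAs (red points with standard errors). miR-21-5p and miR-191-5p lie above 3 in both mappings, and miR-142-5p lies close to the median of 2.05 in the human mapping and of 2.12 in the mouse mapping.

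The order of the 3 arms changed between libraries. miR-21-5p led in pellets 1 and 3 and in supernatants 2 and 3, the pair of miR-21-5p and miR-142-5p stood level in supernatant 1 at 12.7 RPM each, and in pellet 2 miR-142-5p came first and miR-21-5p last. In both fractions the ranges of miR-21-5p and miR-142-5p overlapped, as did those of all 3 arms in the pellets. In the supernatants the range of miR-191-5p lay wholly below those of the other arms. The ratio of miR-142-5p to miR-191-5p was 0.580, 1.16 and 1.07 in pellets 1, 2 and 3 and 2.25, 2.33 and 1.67 in supernatants 1, 2 and 3. It was thus 2.30 times lower in the pellets, without overlap (exact permutation test, two-sided, p = 0.10, adjusted p = 0.30 over the 3 pairs, which were chosen after the values were seen). The ratio of miR-21-5p to miR-142-5p ran from 0.612 in pellet 2 to 11.0 in pellet 1, a range that took in all 3 supernatants (exact permutation p = 0.50). That of miR-21-5p to miR-191-5p likewise overlapped (exact permutation p = 0.90).

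Pellet 2, where miR-142-5p and miR-191-5p stood highest, was also high in other RNAs. Y RNA, a class known as partner of the Ro autoantigen, took 65719 RPM there against 43028 RPM in pellet 1 and 7852 RPM in pellet 3. Of the miRNAs known from red blood cells, miR-451a stood at 37.0 RPM in pellet 2, 4.80 RPM in pellet 1 and 10.4 RPM in pellet 3. miR-486-5p, which made up most of the summed red cell level, held 440 RPM in pellet 2, 138 RPM in pellet 1 and 176 RPM in pellet 3. miR-16-5p was by contrast lowest in pellet 2, at 2.55 RPM against 7.16 RPM in pellet 1 and 4.61 RPM in pellet 3, and miR-16-2-3p, at 20.4 RPM there, stood below the 24.3 RPM of pellet 1. A list of 13 red blood cell miRNAs, of which 9 had values, summed to 516 RPM in pellet 2, 181 RPM in pellet 1 and 202 RPM in pellet 3, and to between 13.0 and 21.9 RPM in the supernatants. Of the 9, 4 were highest in pellet 2, 4 in pellet 1 and 1 in pellet 3, and miR-15b-5p, miR-363-3p and miR-183-5p were at 0 in pellet 2. A value of 0 there allows up to 1.91 RPM, and these names reached at most 3.46 RPM in any pellet, so their zeros say little. miR-16-5p also lay near the floors of pellet 2 and of pellet 3 (3.46 RPM), so its order between them is uncertain. Of the 153 names tested, 54 were highest in pellet 2, 81 in pellet 1 and 18 in pellet 3. The part of these RNAs in the values of miR-142-5p and miR-191-5p was not tested.

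A ratio of one miRNA to another in the same library does not depend on the mapped total. It does depend on the change of the miRNA divided by. miR-1246 ran from 6946 to 17633 RPM in pellets and from 15082 to 19230 RPM in supernatants. The log2 fold change was 0.83 for miR-122-5p and 3.96 for miR-486-5p, beside the median of 2.05 for all names. A name at that median would thus also be higher against miR-1246 and miR-122-5p and lower against miR-486-5p. The share of all names without overlap in such ratios was not computed. Relative to miR-1246, a name whose sequence resembles U2 snRNA, miR-191-5p was 15.4 times higher in the pellets than in the supernatants, miR-21-5p 13.2 times and miR-142-5p 6.67 times, each without overlap. Relative to miR-122-5p of hepatocytes, miR-191-5p was 5.81 times and miR-21-5p 5.01 times higher, without overlap, whereas for miR-142-5p, at 2.52 times, the fractions overlapped (exact permutation p = 0.30). Against miR-486-5p of red blood cells the sign was the opposite. Relative to it, miR-142-5p was 3.72 times lower in the pellets, at 0.227, 0.548 and 0.223 in pellets 1, 2 and 3 and at 1.46, 1.01 and 0.973 in supernatants 1, 2 and 3, without overlap. The log2 differences against miR-486-5p were -1.90 for miR-142-5p (standard error 0.47), -0.91 for miR-21-5p (standard error 0.84) and -0.69 for miR-191-5p (standard error 0.40). The fractions overlapped for miR-21-5p (exact permutation p = 0.40) and for miR-191-5p (exact permutation p = 0.20). Single pellets carried part of these values. Without pellet 2 the ratio to miR-1246 was 9.75 times higher for miR-191-5p and 3.72 times for miR-142-5p, and that to miR-122-5p 3.17 times for miR-191-5p and 1.21 times for miR-142-5p. Without pellet 1 miR-142-5p was 11.9 times higher against miR-1246 and 4.50 times against miR-122-5p. The log2 difference of miR-21-5p against miR-486-5p was -1.67 without pellet 1 and -0.23 without pellet 2, whereas no other of the 9 ratios moved by over 1.5 times when 1 library was left out. Of the 9 ratios, 0 passed, since the exact permutation test cannot give less than p = 0.10 (adjusted p = 0.15 for the 6 without overlap).

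**Figure D3:**
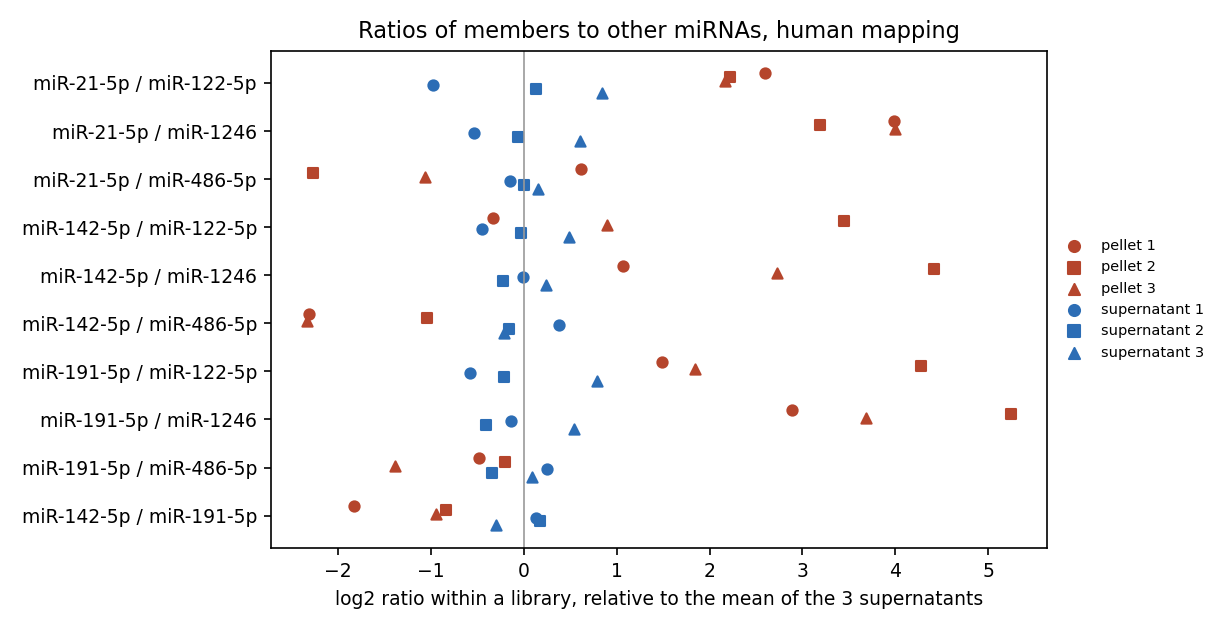
Log2 ratio of each leading arm to miR-122-5p, miR-1246 and miR-486-5p, and of miR-142-5p to miR-191-5p, within each library, set to 0 at the mean of the 3 supernatants. Pellets (red) lie to the right of all supernatants (blue) for all 3 ratios to miR-1246, and to the left for miR-142-5p to miR-486-5p and to miR-191-5p.

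The other 9 names lay below the filter of 1 RPM in at least 3 libraries in the human mapping and were not tested. None of them exceeded 5.30 RPM in any library or 1.04 RPM in a supernatant, and 5 of them were listed at 0 in all supernatants. Most of their reads came from pellet 1, the deepest library, in which 11 of the 12 names were above 0, against 6 in pellet 2 and 8 in pellet 3. Zeros in the shallow pellets 2 and 3 allow up to 1.91 and 3.46 RPM, so differences among these names between pellets were mostly not detectable at this depth.

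Of the miRNAs tied to inflammation, miR-146b-5p reached 5.30 RPM in pellet 1 (35.3 reads by the estimate), 3.65 RPM in pellet 3 (3.17 reads) and 0.974 RPM in supernatant 3 (3 reads), and it was at 0 in pellet 2 and in supernatant 2. miR-146a-5p, its near-identical relative, amounted to 0.333 reads at most in any library. The pair differ in few bases and can share reads, so the split between them is uncertain. miR-155-5p was seen in pellet 1 alone, at 2.55 RPM (17 reads), where the zeros of the 3 supernatants allow up to 0.558, 0.783 and 0.974 RPM.

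miR-223, the myeloid miRNA, was nearly absent from these libraries. Its 3p arm, the main one in human and mouse blood cells, amounted to 0.308 reads in pellet 2 and was listed at 0 in the other 5 libraries. Its 5p arm was seen with 3 reads in pellet 1 (0.450 RPM) and 1 read in supernatant 3 (0.325 RPM). The floor of 0.450 RPM in pellet 1, beside 343 RPM for miR-21-5p and 31.3 RPM for miR-142-5p in the same library, is the lowest limit on miR-223-3p that these depths give. That limit holds for the libraries only, since how well each miRNA was captured was not measured. The study found miR-451a abundant in medium with FBS by quantitative PCR, yet reported it as not sequenced from such libraries. A low count here need not mean a low level in serum. For miR-150 and for miR-142-3p no row was analysed here, which is not a value of 0. The same holds for the 3p arms of miR-146a, miR-146b and miR-155, so that 6 of the 18 arms have no value.

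The arms of one hairpin differed widely. miR-21-3p held 13 reads in pellet 1, 0.538 in pellet 2 and 0.0769 in pellet 3, beside 2286, 232 and 118 reads of miR-21-5p, and it was at 0 in all supernatants. miR-191-3p held 7.17 reads in pellet 1 and 2 in pellet 3, beside 359 and 31.8 reads of its 5p arm. For miR-342, known from white blood cells, the 3p arm led in pellet 1 with 29 reads (4.35 RPM) against 10.7 reads of the 5p arm (1.60 RPM). In the supernatants miR-342-3p was at 0, whereas miR-342-5p held 0.667, 4 and 0.333 reads, up to 1.04 RPM in supernatant 2. These few reads do not allow a comparison of arms between fractions.

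**Figure D4:**
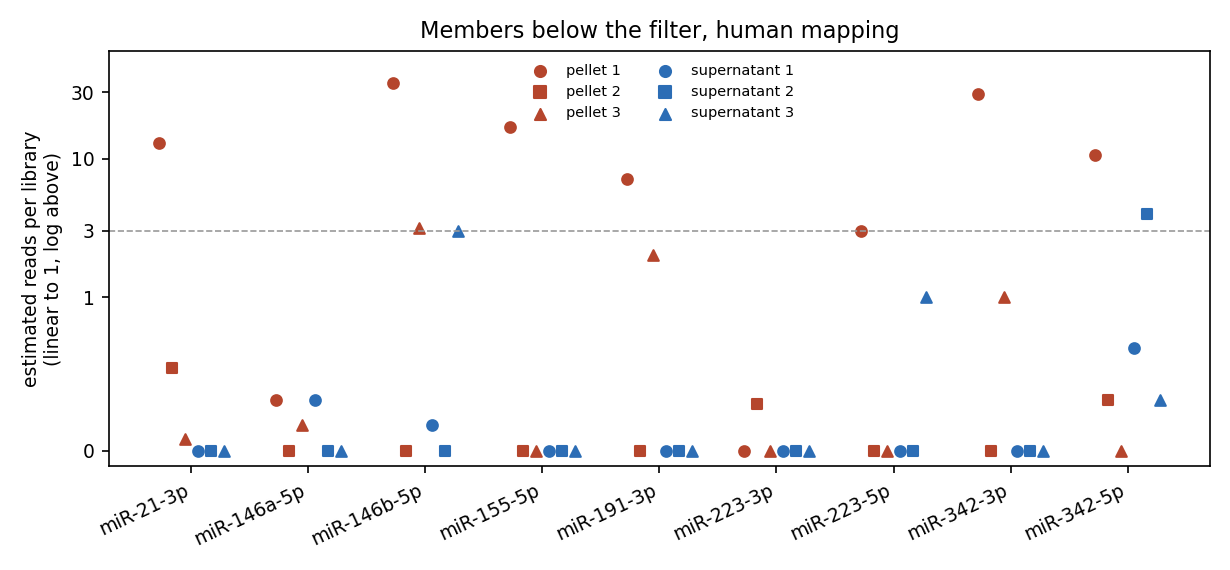
Estimated reads per library of the 9 names below the filter in the human mapping, on an axis that is linear up to 1 read and logarithmic above, with a dashed line at the floor of 3 reads. Pellet 1 (red circles) holds most of the values above 3 reads, up to 35.3 for miR-146b-5p, and most other values are at 0.

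Mapped to the mouse genome, the same reads gave nearly the same levels of the leading arms. miR-21a-5p, the mouse name of miR-21-5p, stood at 312, 142 and 125 RPM in pellets 1, 2 and 3 and at 11.3, 19.3 and 29.5 RPM in supernatants 1, 2 and 3 (log2 fold change 3.18, standard error 0.57, adjusted p = 0.00960 from limma). As estimated reads, its values were 0.964 to 1.01 times those of the human mapping in each library. miR-191-5p stood at 48.9, 200.1 and 33.9 RPM in pellets 1, 2 and 3 and at 4.53, 5.48 and 9.95 RPM in supernatants 1, 2 and 3 (log2 fold change 3.27, standard error 0.76, adjusted p = 0.0162), at 0.892 to 1.03 times the human reads. miR-142a-5p took 926 reads over the 6 libraries against 799 in the human mapping, and more in each library, by 1.02 times in supernatant 2 to 1.22 times in pellet 2.

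miR-142a-5p thus stood at 31.4, 282 and 40.6 RPM in pellets 1, 2 and 3 and at 12.6, 12.6 and 18.8 RPM in supernatants 1, 2 and 3. Its log2 fold change of 2.23 passed in the mouse mapping (standard error 0.83, adjusted p = 0.0480 from limma), just on the other side of the threshold from the human mapping, and the difference between the mappings was not tested. It did not pass without pellet 2 (1.25, adjusted p = 0.0889). The median log2 fold change of the 143 names tested in the mouse mapping was 2.12, and miR-142a-5p lay 0.11 above it.

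Among the rare names the mappings differed more. miR-21a-3p took 12, 7.05 and 1 reads in pellets 1, 2 and 3 of the mouse mapping and 0.0455 reads in supernatant 3, where the human mapping gave 13, 0.538 and 0.0769 reads in the pellets. It thereby entered the test, through the pellets alone, so its call carries no weight (log2 fold change 1.61, standard error 0.52, adjusted p = 0.0374 from limma). miR-155-5p took 11 reads in pellet 1 against 17, and miR-191-3p 1.75 against 7.17. miR-342-3p, with 30 reads over all libraries, and miR-223-5p, with 4, came out the same in both mappings. All 4 names tested in the mouse mapping were called higher in the pellets, where 55.9% of the 143 names were. With the filter at 5 RPM, limma called 3 of 3 members and 75 of the 92 names tested higher. The 4 did not overlap between fractions, as in 73.4% of the names (72.0% with the pellets higher). Both mappings rest on the same reads, and the second does not replicate the first.

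The libraries in which miR-21-5p was high or low were much the same for some other miRNAs. By Pearson correlation of log2(RPM + 1) over the 6 libraries, let-7f-5p (0.995), miR-23b-3p (0.994) and let-7a-5p (0.991) were the nearest of 152 names in the human mapping, and let-7f-5p (0.996), miR-23b-3p (0.994) and let-7c-5p (0.991) of 142 in the mouse mapping. The points share the gap between fractions, so these values describe likeness alone. miR-191-5p, at 0.844, ranked 68th and miR-142-5p, at 0.637, ranked 115th in the human mapping, so that neither followed miR-21-5p as closely as those names did. The correlation between miR-142-5p and miR-191-5p, both highest in pellet 2, was not computed.

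Of 20 further miRNAs known from platelets and white blood cells, 18 had values in the human mapping and 10 were tested, with 9 called higher in the pellets, 0 called lower and 1, miR-126-3p, short of the threshold. Among all names 47.7% were called higher, a share that includes names that entered the test through the pellets. Of the 100 names that reached 5 RPM in at least 3 libraries, 80 were called higher, and the list was not counted under that filter. The list is not particular to blood cells, since it holds miR-199a-3p, whose other arm, miR-199a-5p, is in the vascular list used below. The median log2 fold change of the 10 was 2.18, beside 2.05 for all names, and in the mouse mapping 9 of 10 were higher with a median of 2.21, beside 55.9% and 2.12 for all names. In each mapping 2 of the 9, miR-125a-5p and miR-23a-3p, passed the filter through the pellets, so their calls carry no weight. The most abundant was miR-181a-5p, a tuner of T cell receptor signalling in mice, which averaged 261 ± 72.1 RPM in pellets and 79.2 ± 11.8 RPM in supernatants (SD, n = 3 per fraction), for a log2 fold change of 1.68 (adjusted p = 0.0180 by limma). It was followed by its relative miR-181b-5p at 166 ± 65.5 and 47.1 ± 12.6 RPM (1.75, adjusted p = 0.0241) and by miR-22-3p at 85.2 ± 31.6 and 15.7 ± 0.199 RPM (2.30, adjusted p = 0.0131). miR-24-3p stood at 74.2 ± 68.6 and 8.16 ± 3.12 RPM, or 34.7 RPM in the pellets without pellet 1 (log2 fold change 2.72, adjusted p = 0.0229). In the supernatants miR-181a-5p and miR-181b-5p were thus above miR-21-5p, and each of their supernatant values exceeded the highest one of miR-21-5p.

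The counts for markers of other tissues differed between the mappings. In the human mapping 2 of 4 tested red blood cell miRNAs were higher in the pellets by limma, as were 1 of 5 liver, 1 of 6 muscle, 1 of 4 brain and 1 of 2 vascular miRNAs, beside 47.7% of all names. In the mouse mapping the counts were 4 of 5 for red blood cells, 3 of 3 for liver, 1 of 5 for muscle, 1 of 4 for brain and 2 of 2 for vessels, beside 55.9% of all names, and 0 were lower in either. The median log2 fold changes were 3.10 (human) and 2.24 (mouse) for red blood cells, 1.68 and 2.196 for liver, 0.58 and 0.71 for muscle, 2.69 and 2.70 for brain and 2.52 and 2.54 for vessels. These include names that entered the test through the pellets, whose calls carry no weight. miR-16-2-3p of the red cell list, at 0 in all supernatants, is 1 of its 2 human calls. In the mouse mapping 2 of 4 red cell, 1 of 3 liver and 1 of 2 vascular calls were of this kind. Without such names the medians were 3.10 (human) and 3.06 (mouse) for red blood cells and 1.52 and 1.62 for liver. For muscle they were 0.56 and 1.26, for brain 2.09 and 2.14 and for vessels 2.10 and 2.15, over 1 to 4 names each. Epithelial miRNAs reached 4.10 RPM in sum in pellet 2 and 0.419 RPM in a supernatant of the human mapping, and 0 of them were tested. These lists are short, and no difference between them was tested.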

How the data were processed

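Small RNA of 3 FBS pellets and 3 supernatants was measured. The authors deposited an RPM table of RNA classes and one of miRNAs, scaled to all mapped reads (reads per 1000000), for hg19 (exceRpt pipeline) and for mm10, with a mouse pipeline not given in the sources used here. Libraries were not pooled. Names that reached 1 RPM in 3 or more libraries went into limma 3.58.1 (R 4.3.3) as log2(RPM + 1), two-sided, with a variance trend and no covariate, and with Benjamini-Hochberg adjustment over all names of a table at 0.05. These steps were checked on simulated data. The simulated names had equal spread and as many rises as falls, unlike the names measured here. Exact permutation tests over the 20 relabellings used Python 3.11.15, numpy 2.4.6, pandas 2.3.3 and scipy 1.17.1, and figures matplotlib 3.10.9.

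Members and lists were chosen with earlier results of these data known. Members with a mean of at least 5 RPM in a fraction are given per library. Other names given are the denominators of the ratios, the 3 names most like miR-21-5p and the 4 most abundant of the list of 20. Between 35.6% and 59.6% of the values above 0 in a library of the human mapping were whole reads within 0.02 reads, so no count test was run. Near-identical miRNAs can share reads. Alternatives were other pseudocounts, filters, scalings, no trend, a replicate block and leaving out single libraries. Cattle genes were looked up by name in the NCBI annotation of ARS-UCD2.0.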

Additional observations from a re-analysis of the deposited data

How the results depend on the processing

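No tested member changed direction under the alternatives run. In the human mapping, where 2 members were called, limma called 0 without the filter on low values (3 at an unadjusted p under 0.05) and 0 with median-of-ratios scaling (1 at an unadjusted p under 0.05), and between 0 and 3 when 1 library was left out. The 0 came without supernatant 1 or supernatant 2 (2 at an unadjusted p under 0.05 in each case), when 0 of all names were called. In the mouse mapping, where 4 were called, limma called 2 with a pseudocount of 10 RPM, 1 without the filter, 1 when scaled to miRNA reads and 0 with median-of-ratios scaling (2 at an unadjusted p under 0.05), and between 0 and 3 when 1 library was left out, with 0 again without supernatant 1 (3 at an unadjusted p under 0.05) or 2 (2 at an unadjusted p under 0.05). Over all names, 73 human and 80 mouse calls became 11 and 10 without the filter, 38 and 34 with a pseudocount of 10 RPM, 38 and 10 when scaled to miRNA reads, and 6 and 8 with median-of-ratios scaling, which turned most calls to lower in the pellets (5 of 6 and 7 of 8).

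miR-142-5p passed in 5 of 14 alternatives of the human mapping (adjusted p = 0.0203 to 0.910) and in 5 of 14 of the mouse mapping. miR-21-5p passed in 10 and 11 of 14 (adjusted p = 0.000865 to 0.241 in the human mapping) and miR-191-5p in 10 and 9 of 14 (adjusted p = 0.00186 to 0.290), and miR-21a-3p of the mouse mapping in 3 of the 10 that kept it. The fold of the summed members became 5.70 (human) and 4.57 (mouse) as a share of miRNA reads, from 9.04 and 9.81. Their mean sum ran from 332.5 to 522 RPM in the pellets and from 37.4 to 54.2 RPM in the supernatants of the human mapping when 1 library was left out, and from 306 to 517 RPM and from 33.5 to 48.9 RPM in the mouse mapping. All 6 ratios available in the mouse mapping kept their direction. All 9 human ratios kept it without each library in turn, an alternative chosen after seeing the data. Deviations of same-numbered pellets and supernatants correlated at -0.19, 0.27 and 0.26 in the human mapping, and pellet 1 correlated best with supernatant 3. Such values cannot settle which libraries pair, and the labels do not say so. The numbers were not taken to pair the samples, and the main fit had no block because the study compared groups by an unpaired test. With the replicate block 3 members were called in the human mapping (miR-142-5p at an adjusted p of 0.0309 from limma) and 4 in the mouse mapping. Of all names, limma then called 78 of 153 higher in the human mapping and 73 of 143 in the mouse mapping. Depth limits all members other than the 3 leading arms.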

Other observations

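The mouse table also lists miR-142b, the name of a mouse hairpin annotated opposite to that of miR-142a, which stood at 0.0508 RPM in pellet 2 and at 0 in the other 5 libraries. miR-142a-5p held 282 RPM in that pellet. In the list of further blood-cell miRNAs, miR-125a-5p, named after its values were seen, stood at 48.1, 10.8 and 23.1 RPM in pellets 1, 2 and 3 and at 0.186, 0 and 1.99 RPM in supernatants 1, 2 and 3 of the human mapping, which gave it a log2 difference of 3.98 (standard error 0.80), and it entered the test through the pellets.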
